A study of Mus musculus with 6 samples.

Results

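Collagens are built from chains that share a repeated glycine pattern and wind into triple-stranded helices. Their chain genes are recognised by symbol (Col, a type number, the letter a and a chain number), and 42 of the 24408 genes in the deposited table carry such a symbol. They were followed in mouse lung fibroblasts taken from untreated mice or recovered from injured host lungs. By class, 11 encode fibrillar chains, 6 type IV chains of the basement membrane, 5 type VI chains, 9 FACIT chains (fibril-associated collagens with interrupted helices), 4 transmembrane chains, 3 network-forming chains of types VIII and X, 2 multiplexins of the basement membrane zone (types XV and XVIII) and 1 the anchoring fibril collagen VII. Col28a1 belongs to none of these classes.

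As background, types I and III form the load-bearing fibrils of the lung interstitium, and type V chains are built into the same fibrils and limit their width. Type VI forms beaded filaments around cells, type IV the sheet under epithelia and vessels, and transmembrane collagens sit in the cell membrane with a collagenous outer part. Fibroblasts are the main source of fibrillar collagen in lung scarring, in which these genes are known to be raised.

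Donor fibroblasts came from untreated mice of the Col-GFP (C57BL/6) strain, whose cells carry a collagen fluorescent reporter, and were enriched by removing cells with lineage markers. The Untreated library holds purified lung fibroblasts of such mice with no transfer. The Day 2, Day 4 and Day 7 libraries hold Col-GFP+ cells sorted 2, 4 or 7 days after transfer through the trachea into wild type hosts that had been given bleomycin, a lung-injuring drug, 7 days before the transfer. The Acta2 low and Acta2 high libraries hold transferred cells of a Col-GFP and Acta2-mKO1 (C57BL/6) donor strain. Their hosts were also given bleomycin 7 days before the transfer, and the cells were sorted by a reporter of Acta2, the smooth muscle actin gene. The day of that sort, the ages of the mice, any pooling of animals, the collagen promoter behind Col-GFP and whether Untreated cells were gated on it are not stated in the labels. Because the recovered cells were gated on a collagen reporter, the gate and a change of collagen genes within cells cannot be told apart. Fewer cells of a kind and less RNA per cell cannot be told apart in such bulk samples either.

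Each group was 1 library of 4448065 to 6175334 tags, so no difference has a replicate check, no p-value is given and every interval covers counting error only. All 8 fibroblast markers examined had tags in every library. They summed to 2595 to 11740 CPM (tags per 1000000 assigned tags), mostly from Dcn and Mfap5, and single markers moved in both directions. Tcf21 stood at 1230 CPM in Untreated and 21.1 to 97.7 elsewhere, Dcn at 9626 and 1039 to 7723. Pdgfra stood at 30.0 CPM in Untreated and 5.30 at Day 7. Lum, Thy1, Fn1 and Mfap5 were higher at Day 7 than in Untreated, and Pdgfrb never exceeded 2.73 CPM. The 16 macrophage and other leukocyte markers summed to 1.65 to 5.30 CPM, with Ptprc, Cd68 and Marco at 0 tags in all 6 libraries, and the 7 endothelial markers to 0.162 to 2.56 CPM. Epithelial markers summed to 4.19 to 42.2 CPM, through Sftpc, Sftpa1 and Scgb1a1, with Cdh1 at 0 throughout. Mesothelial markers summed to 0.342 to 7.31 CPM. The 6 smooth muscle and pericyte markers summed to 12.8 CPM in Untreated, 40.5, 67.9 and 84.1 on days 2, 4 and 7, and 207 and 127 in Acta2 low and Acta2 high, mostly from Des. Their part in the results was not tested. The actin-binding gene Gsn took 17.4% of the Untreated tags and at most 0.226% elsewhere, Spp1 took 7.28% at Day 7, and Zyg11b with Luc7l2 took 0.530% in Untreated, 1.10% at Day 7 and 6.78 to 9.73% in the other 4 libraries. Such shares move the CPM of every other gene. For this reason each ratio between libraries was divided by the fold of the median measured gene and is called relative to the median gene. Levels are CPM as deposited, and the calls by size below also use CPM as deposited. The median gene stood 0.66, 0.31 and 0.39 log2 above Untreated at Day 2, Day 4 and Day 7.

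The collagen chain genes together took 0.145% of the tags in Untreated (95% Clopper-Pearson interval 0.142 to 0.148). They took 0.187% at Day 2 (0.184 to 0.191), 0.592% at Day 4 (0.584 to 0.599) and 1.27% at Day 7 (1.26 to 1.28). These shares are not set relative to the median gene, which stood 1.58-fold above Untreated at Day 2. The collagen share rose by less than that at Day 2, so on that scale the total was not above Untreated there. At Day 4 and Day 7 the median gene stood 1.24-fold and 1.31-fold above Untreated, less than the collagen share. In the sorted libraries the share was 0.660% in Acta2 low (0.653 to 0.667) and 1.17% in Acta2 high (1.16 to 1.18). Most of that difference came from a few genes. Col1a1, the gene of the main chain of type I collagen, took 21.4% of the collagen tags in Untreated and 41.4% at Day 2, 60.2% at Day 4, 62.7% at Day 7, 67.7% in Acta2 high and 65.1% in Acta2 low. Of the 42 genes, 18 averaged 10 CPM or more across the 6 libraries and are described one by one. The other 24 never exceeded 14.8 CPM, and 12 of them had at most 3 tags in any library.

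The sequence upstream of the annotated start is shown for 4 of these genes, to set the letters beside the levels that follow. Col1a2 and Col3a1 are fibrillar genes that were higher than Untreated at Day 4 and Day 7, relative to the median gene. Col8a1 had the largest ratio to Untreated, and Col13a1 was lower after transfer. The 250 bases before each start are from RefSeq, build GRCm38.p6, a later build than the mm9 named for the deposited table, and are written 5′ to 3′ on the gene's strand. Capitals mark the letters CCAAT, the letters TATAAA and the letters GGGCGG, each on either strand.
Col1a2, chr6:4505368-4505617, plus strand: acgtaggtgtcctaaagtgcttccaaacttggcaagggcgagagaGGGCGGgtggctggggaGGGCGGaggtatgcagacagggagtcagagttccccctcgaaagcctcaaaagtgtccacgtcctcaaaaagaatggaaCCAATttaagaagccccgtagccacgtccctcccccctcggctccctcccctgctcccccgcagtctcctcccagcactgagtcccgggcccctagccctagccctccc
Col3a1, chr1:45311288-45311537, plus strand: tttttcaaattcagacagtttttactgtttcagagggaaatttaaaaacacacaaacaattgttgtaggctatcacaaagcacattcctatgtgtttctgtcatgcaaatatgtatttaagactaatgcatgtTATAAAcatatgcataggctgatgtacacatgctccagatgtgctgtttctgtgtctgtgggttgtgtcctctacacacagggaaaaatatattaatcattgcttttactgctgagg
Col8a1, chr16:57754738-57754987, minus strand: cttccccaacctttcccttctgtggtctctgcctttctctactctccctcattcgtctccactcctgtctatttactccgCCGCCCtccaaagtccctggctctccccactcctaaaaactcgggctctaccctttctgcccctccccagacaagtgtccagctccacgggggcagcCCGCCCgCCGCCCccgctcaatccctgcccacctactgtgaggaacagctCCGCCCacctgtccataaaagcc
Col13a1, chr10:61979109-61979358, minus strand: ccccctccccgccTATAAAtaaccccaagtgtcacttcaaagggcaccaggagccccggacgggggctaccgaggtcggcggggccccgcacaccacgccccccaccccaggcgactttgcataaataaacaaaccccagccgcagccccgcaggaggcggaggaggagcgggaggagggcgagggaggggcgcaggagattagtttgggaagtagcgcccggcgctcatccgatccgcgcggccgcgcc
The Col1a2 window held 1 CCAAT and 2 GGGCGG, the Col3a1 window 1 TATAAA, the Col8a1 window 4 GGGCGG and the Col13a1 window 1 TATAAA. Over both strands, with overlapping matches allowed, CCAAT stood in 33.8% and TATAAA in 12.4% of all 32851 windows of this length, against 35.1% and 13.5% of the 37 windows of the 34 collagen genes found in the RefSeq table. GGGCGG stood in 32.7% of all windows and in 56.8% of the collagen windows, and CAGAC in 42.2% and 45.9%. These are letter matches and say nothing of binding.

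The 6 fibrillar genes described singly all stood above Untreated at Day 4 and Day 7, relative to the median gene. In Untreated the highest collagen gene was Col6a2, of type VI, and in the other 5 libraries Col1a1. Col1a1 stood at 310.2 CPM in Untreated, 776.5 at Day 2, 3560 at Day 4, 7988 at Day 7, 7953 in Acta2 high and 4293 in Acta2 low. Relative to the median gene it was 1.59-fold higher at Day 2 than in Untreated (95% counting interval 1.502 to 1.68), 9.26-fold at Day 4 (8.81 to 9.74) and 19.7-fold at Day 7 (18.8 to 20.7). Each time library lay above the one before it, and Acta2 high lay close to Day 7. Col1a2, the partner chain of type I, stood at 52.8, 76.8, 249.3 and 488 CPM in Untreated, Day 2, Day 4 and Day 7, and at 241 and 379 in Acta2 low and Acta2 high. Relative to the median gene its ratio to Untreated was 0.921 at Day 2 (0.794 to 1.07), 3.81 at Day 4 (3.34 to 4.35) and 7.08 at Day 7 (6.27 to 8.02). The deposited CPM of Col1a2 at Day 2 was above Untreated, and that direction turns when the 100 most abundant genes are left out of the scaling. Col3a1, the chain of type III fibrils, stood at 265 CPM in Untreated, 413 at Day 2, 1037 at Day 4, 2457 at Day 7, 1916 in Acta2 high and 1113 in Acta2 low. Its ratio to Untreated relative to the median gene was 0.988 at Day 2 (0.926 to 1.06), 3.15 at Day 4 (2.97 to 3.35) and 7.09 at Day 7 (6.72 to 7.49). On that scale Col1a2 and Col3a1 at Day 2 did not differ from Untreated beyond counting error, while all 3 genes lay above it at Day 4 and Day 7.

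Type V chains followed another course, with their highest time library at Day 4. Col5a1 stood at 17.9 CPM in Untreated, 51.5 at Day 2, 109 at Day 4, 94.0 at Day 7, 153 in Acta2 high and 133 in Acta2 low. Relative to the median gene it was 4.93-fold above Untreated at Day 4 (3.96 to 6.19) and 4.02-fold at Day 7 (3.23 to 5.03). Col5a2 stood at 12.98, 46.5, 78.7 and 71.2 CPM across Untreated, Day 2, Day 4 and Day 7, and at 79.8 and 110.2 in Acta2 low and Acta2 high. The Day 2 level was already above Untreated for both chains, at ratios of 1.82 (1.45 to 2.31) and 2.27 (1.75 to 2.99). Col5a3, a less common type V chain, had 2.74 CPM in Untreated, 19.6 at Day 2, 27.7 at Day 4, 9.91 at Day 7, 32.7 in Acta2 high and 28.1 in Acta2 low. It was 8.14-fold above Untreated at Day 4 (4.75 to 15.0), and its Day 7 level was 2.93-fold below Day 4 relative to the median gene (2.12 to 4.07). The remaining fibrillar chains were rare. Col11a1 had no tag in Untreated or Day 2, 1.12 CPM at Day 4, 5.13 at Day 7, 2.995 in Acta2 high and 1.38 in Acta2 low. This puts its Day 7 level at least 7.16-fold above Untreated relative to the median gene, with Untreated set to 3 tags. Col27a1 had 1.46 to 3.79 CPM and Col24a1 0 to 1.03 CPM, while Col2a1 had 1 tag and Col11a2 2 tags in all 6 libraries together.

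**Figure D1:**
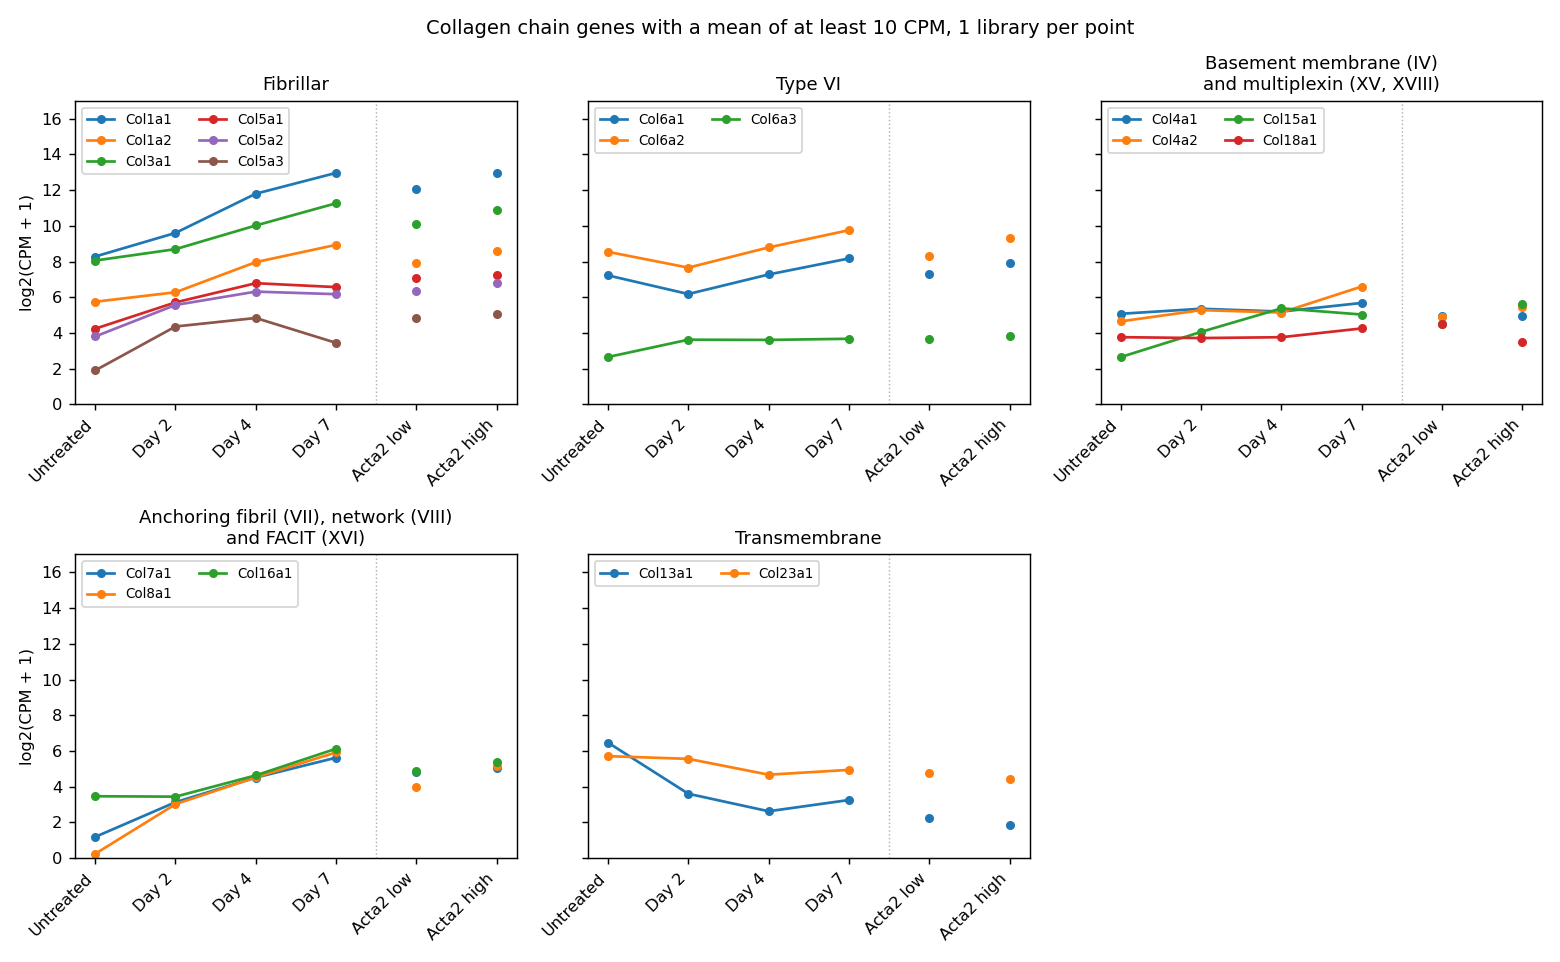
Levels of the 18 collagen chain genes with a mean of at least 10 CPM, as log2(CPM + 1) on the vertical axis, in the 6 libraries on the horizontal axis; each point is 1 library, lines join Untreated and the 3 time libraries, and there are no error bars. Types I and III were highest at Day 7, the type V chains peaked at Day 4 among the time libraries, Col6a1 and Col6a2 dipped at Day 2, and Col13a1 was lower in every library after transfer.

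Type VI genes were the second most abundant class and went the other way at first. Col6a2 stood at 372 CPM in Untreated, 201 at Day 2, 442 at Day 4, 864 at Day 7, 649.7 in Acta2 high and 313 in Acta2 low. Relative to the median gene it was 2.92-fold lower than in Untreated at Day 2 (2.72 to 3.14) and 1.78-fold higher at Day 7 (1.69 to 1.87). Col6a1, its partner, was likewise lowest at Day 2 and highest at Day 7, at 149, 71.6, 154 and 288 CPM in Untreated, Day 2, Day 4 and Day 7 and at 156 and 243 in Acta2 low and Acta2 high. At Day 4 both lay near Untreated, with ratios of 0.836 for Col6a1 (0.754 to 0.927) and 0.958 for Col6a2 (0.9004 to 1.02), and their CPM directions turn with the scaling. Col6a3 encodes the largest of the classical chains and had few tags, 5.30 CPM in Untreated and 11.2 to 13.4 in the other 5 libraries. It did not dip at Day 2, where it had 11.3 CPM and a ratio of 1.36 to Untreated (0.868 to 2.17). Col6a4 and Col6a6 had 2 tags and 1 tag in all.

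Among basement membrane genes, the partner chains Col4a1 and Col4a2 parted at Day 7. Col4a1 stood at 32.7 CPM in Untreated, 40.0 at Day 2, 35.7 at Day 4, 50.4 at Day 7, 29.8 in Acta2 high and 30.3 in Acta2 low, a narrow range. Col4a2 stood at 24.1, 37.9, 34.4 and 96.2 CPM in Untreated, Day 2, Day 4 and Day 7, and at 29.3 and 42.9 in Acta2 low and Acta2 high. The Day 7 ratio to Untreated was 1.18 for Col4a1 (0.976 to 1.43) and 3.05 for Col4a2 (2.52 to 3.72). At Day 2 and Day 4 the CPM direction of Col4a1 turns with the scaling. RefSeq places the annotated starts of these 2 genes 21 bases apart on opposite strands of chromosome 8 (build GRCm38.p6). Col4a5, which pairs with rarer type IV chains, was highest in Untreated at 7.49 CPM, with 1.46 at Day 2, 1.80 at Day 4, 4.44 at Day 7, 2.60 in Acta2 high and 1.77 in Acta2 low, and all 7 tags of Col4a4 fell in Untreated. Col15a1, a multiplexin of the basement membrane zone, had 5.30 CPM in Untreated, 15.7 at Day 2, 40.7 at Day 4, 31.8 at Day 7, 48.9 in Acta2 high and 21.4 in Acta2 low. It was 6.20-fold above Untreated at Day 4 (4.17 to 9.51). Col18a1, the source of the endostatin fragment, lay between 10.2 CPM in Acta2 high and 22.0 in Acta2 low, with 12.6, 12.1, 12.6 and 18.1 across Untreated, Day 2, Day 4 and Day 7.

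The largest ratios to Untreated belonged to genes that were almost silent there. Col8a1, a short chain of hexagonal networks, had 1 tag in Untreated (0.183 CPM) and stood at 7.13 CPM at Day 2, 22.0 at Day 4, 59.6 at Day 7, 34.5 in Acta2 high and 14.5 in Acta2 low. Its Day 7 ratio of 249.7 (interval 44.5 to 9892) rests on that 1 tag. Col7a1, the chain of fibrils that anchor epithelia, had 7 tags in Untreated (1.28 CPM), then 7.77 CPM at Day 2, 21.8 at Day 4, 48.3 at Day 7, 32.1 in Acta2 high and 27.3 in Acta2 low. It was 28.9-fold above Untreated at Day 7 (13.9 to 72.6). Both genes followed the order of types I and III over the time libraries. Col8a2 had 3.84 CPM in Untreated, 0.486 at Day 2 and 12.6 at Day 7, and Col10a1, a marker of hypertrophic cartilage, had 3 tags in all.

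Among FACIT genes, Col16a1 and Col12a1 were higher at Day 4 and Day 7 than in Untreated and Col14a1 was lower. Col16a1 stood at 10.1 CPM in Untreated, 9.88 at Day 2, 23.8 at Day 4, 68.8 at Day 7, 40.1 in Acta2 high and 27.9 in Acta2 low, which puts Day 7 at 5.24-fold above Untreated (3.95 to 7.08). Col12a1, whose product lies on type I fibrils, had 0.914 CPM in Untreated and 4.21, 6.97 and 7.69 on days 2, 4 and 7, with 9.63 in Acta2 low and 7.99 in Acta2 high. Col14a1, its close relative, had 14.8 CPM in Untreated and 4.21, 4.95 and 8.54 on days 2, 4 and 7, with 3.54 in Acta2 low and 5.19 in Acta2 high. Col14a1 had more tags than Col12a1 in Untreated and at Day 7, as many at Day 2 (26 each), and fewer at Day 4 and in both sorts. The type IX genes, Col19a1, Col20a1 and Col22a1 had 1 to 12 tags each over all libraries.

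Transmembrane collagens were lower after transfer. Col13a1, whose product sits at cell adhesions, stood at 87.6 CPM in Untreated, 11.2 at Day 2, 5.17 at Day 4, 8.54 at Day 7, 2.60 in Acta2 high and 3.73 in Acta2 low. Relative to the median gene it was 12.4-fold lower than in Untreated at Day 2 (9.58 to 16.1), 21.0-fold at Day 4 (13.8 to 33.4) and 13.4-fold at Day 7 (9.99 to 18.3). All 5 libraries of transferred cells lay far below Untreated. Col23a1 stood at 51.4 CPM in Untreated, 46.2 at Day 2, 24.5 at Day 4, 29.7 at Day 7, 20.8 in Acta2 high and 25.9 in Acta2 low. It was 1.75-fold lower at Day 2 (1.48 to 2.08) and 2.26-fold at Day 7 (1.86 to 2.74). Col17a1, best known from the junction of epithelial cells with the basement membrane, had 28 tags in Untreated and 0 to 4 in the other libraries, and Col25a1 had 1 tag in all. The summed epithelial markers were 38.4 CPM in Untreated, 12.2 at Day 2, 5.62 at Day 4 and 42.2 at Day 7; their part in the Col17a1 level was not tested.

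**Figure D2:**
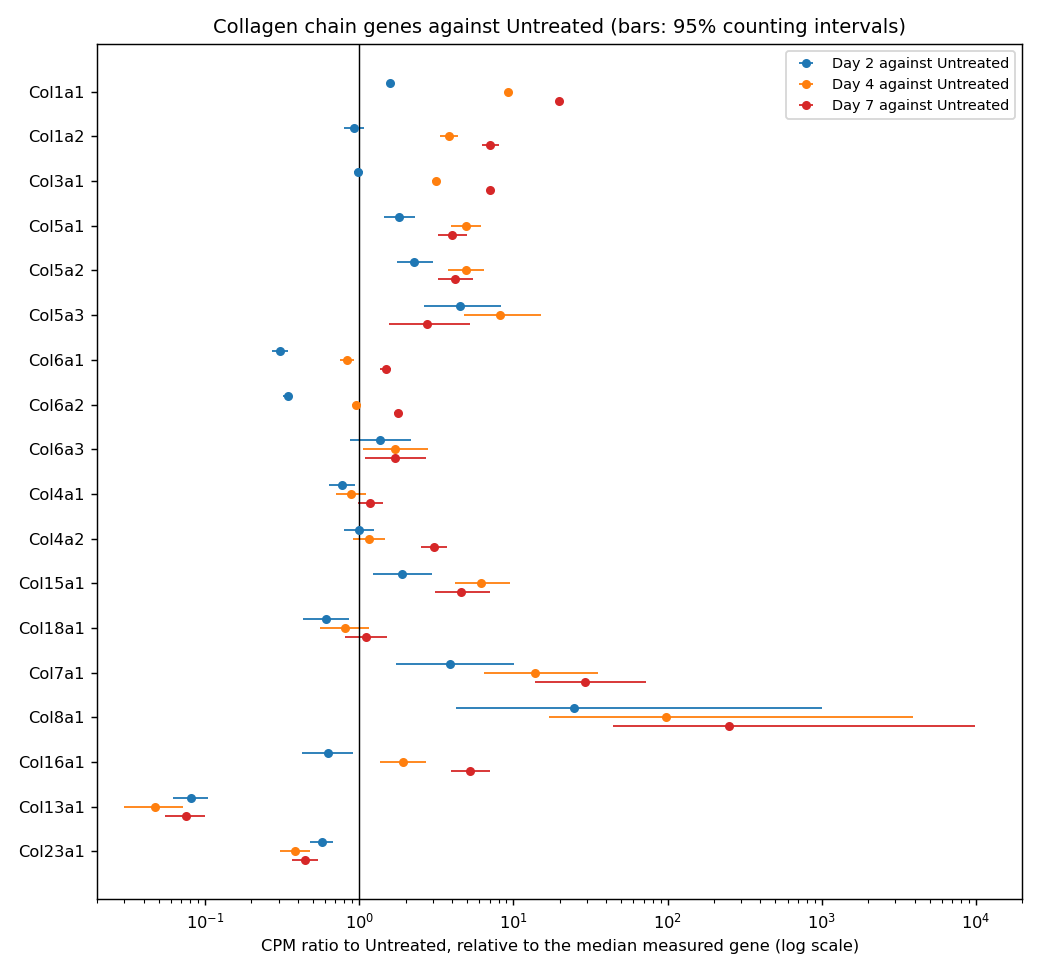
Ratio of CPM to Untreated for the 18 genes, divided by the fold of the median measured gene, on a log axis; points are Day 2, Day 4 and Day 7 (1 library each) and bars are exact 95% counting intervals. Col1a1 reached 19.7 at Day 7, Col8a1 had the widest interval because Untreated held 1 tag, and Col13a1 lay below 1 on all 3 days.

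Counts past a size of 4-fold give the changes in brief, on CPM as deposited and not relative to the median gene. A gene was measured where its mean over the 2 compared libraries was at least 10 CPM, and it was called when log2(CPM + 1) differed by at least 2. At Day 2, 14 of the 42 genes were measured against Untreated: Col5a3 was called higher and Col13a1 lower, where 13.6% and 4.7% of all 4256 measured genes were called higher and lower. Under median-ratio scaling none was higher and 2 were lower, where 8.29% and 6.82% of all measured genes were. Without the 100 most abundant genes 1 was higher and 3 were lower, where 6.85% and 7.79% of all measured genes were. The median difference of the 14 genes was 0.58 log2, against 0.66 for all measured genes. At 2-fold, 5 were higher and 2 lower, with backgrounds of 38.9% and 10.4%. At Day 4, 17 were measured, 8 were higher (Col1a1, Col1a2, the 3 type V chains, Col7a1, Col8a1 and Col15a1) and Col13a1 was lower, with backgrounds of 9.99% and 5.11%. Without the 100 most abundant genes the call of Col1a2 was lost and Col12a1 was called. Their median was 1.96 log2 against 0.31, and at 2-fold 10 were higher and 2 lower, with backgrounds of 26.6% and 14%. At Day 7, 17 were measured, 9 were higher and Col13a1 was lower, with backgrounds of 4.95% and 3.31% and medians of 2.33 against 0.39 log2. At 2-fold, 11 were higher and 1 lower, with backgrounds of 20.7% and 7.22%. With a pseudocount of 5 CPM the call of Col15a1 at Day 7 was lost. Less the shift of the median gene, Col5a1, Col5a2 and Col15a1 at Day 7 fell short of 2, at 1.94, 1.98 and 1.99 log2. So did Col1a2 at Day 4, at 1.91, and Col5a3 at Day 2, at 1.80. Compared with the Day 4 calls, Col3a1 and Col16a1 were added and Col5a3 was not measured. Col5a3, Col7a1, Col8a1 and Col15a1 had under 10 CPM in Untreated and could be measured only because they were higher after transfer, so their calls follow in part from the filter. Col13a1 stood at 5.17 CPM at Day 4 and 8.54 at Day 7, and was measured there only because it was higher in Untreated. Its lower calls on those days follow in part from the filter as well. The 3 comparisons share the Untreated library.

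From Day 2 to Day 4, 1 of 17 measured genes, Col1a1, was called higher and none lower, with backgrounds of 0.305% and 0.258%. Less the shift of the median gene, Col1a2 was also past 2 at this step, at 2.04 log2. At 2-fold, 10 were higher and none lower, with backgrounds of 2.14% and 9.81%. Relative to the median gene Col1a1 was 5.84-fold higher (5.65 to 6.03), Col1a2 4.14-fold (3.71 to 4.62), Col3a1 3.19-fold (3.04 to 3.35) and Col6a2 2.80-fold (2.61 to 3.01). Type IV chains lay near the median gene at that step, Col4a1 at 1.14 (0.926 to 1.39) and Col4a2 at 1.16 (0.936 to 1.42), and their CPM directions turn with the scaling. From Day 4 to Day 7 no gene of the 17 measured was called, with backgrounds of 2.23% in each direction. At 2-fold, 6 were higher and Col5a3 lower, with backgrounds of 11.6% and 7.87%. Col16a1 at 2.76-fold (2.22 to 3.45), Col4a2 at 2.67-fold (2.23 to 3.21), Col8a1 at 2.58-fold (2.06 to 3.26), Col3a1 at 2.26-fold (2.19 to 2.34) and Col1a1 at 2.14-fold (2.10 to 2.18) were among the higher. Col5a1 and Col15a1 were lower at that step, at ratios of 0.819 (0.723 to 0.927) and 0.745 (0.604 to 0.919).

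The makeup of the collagen tags does not depend on how a library was scaled. Fibrillar genes took 45.7% of the collagen tags in Untreated (44.6 to 46.9), 74.1% at Day 2 (73.3 to 74.9), 85.6% at Day 4 (85.2 to 86.1), 87.3% at Day 7 (87.1 to 87.6), 89.3% in Acta2 low and 89.8% in Acta2 high. Type VI genes took 36.3% in Untreated (35.2 to 37.4), 15.2% at Day 2, 10.3% at Day 4, 9.14% at Day 7, 7.71% in Acta2 high and 7.28% in Acta2 low. The summed level of type VI was nevertheless higher at Day 7, 1163 against 526 CPM, so its smaller share there goes with the larger fibrillar sum, 11120 against 663 CPM. Transmembrane genes took 9.93% in Untreated (9.28 to 10.6), 3.09% at Day 2, 0.509% at Day 4, 0.302% at Day 7, 0.202% in Acta2 high and 0.459% in Acta2 low. Type IV genes took 4.55% in Untreated and 1.19% at Day 7, although their sum was 66.0 and 151 CPM. The remaining classes held at most 1.81% each, the FACIT share in Untreated. When Col1a1, Col1a2 and Col3a1 were left out, the other fibrillar genes took 4.27% in Untreated, 19.9% at Day 2, 20.5% at Day 4 and 10.2% at Day 7. Their summed level was lower at Day 7, at 184 CPM against 219 at Day 4. The smaller share at Day 7 goes with this lower sum and with the larger sum of the other classes, type VI at 607 and 1163 CPM among them.

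**Figure D3:**
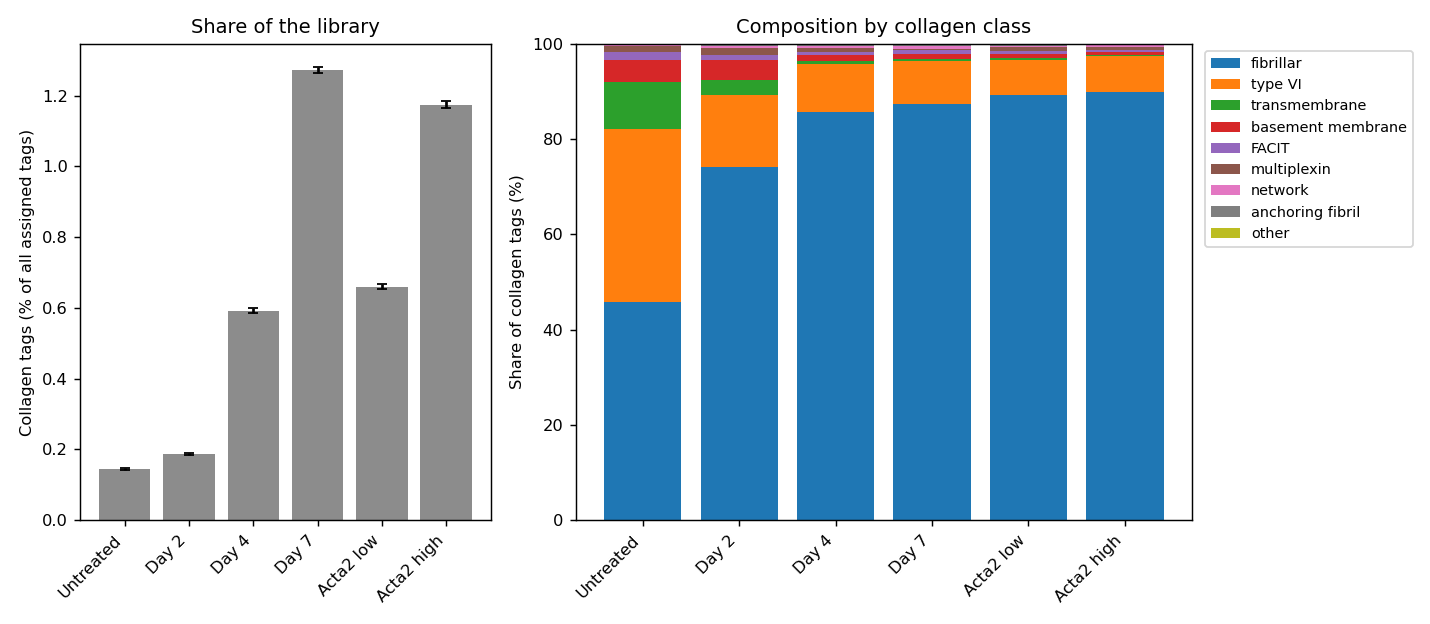
Left, collagen tags as a percentage of all assigned tags in each library, with 95% Clopper-Pearson intervals; right, the share of each collagen class among those tags, stacked to 100%, for the same 6 libraries. Fibrillar genes went from 45.7% in Untreated to 87.3% at Day 7, and the total from 0.145% to 1.27%.

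Ratios between chains within a library show where partner chains kept pace. One transcript gives 1 tag whatever its length, but the yield of that tag can differ between genes, so a ratio is read across libraries and not as a count of chains. Type I collagen is usually built from Col1a1 and Col1a2 products together. Col1a1 had 5.87 tags for each Col1a2 tag in Untreated (5.18 to 6.68), 10.1 at Day 2 (9.20 to 11.1), 14.3 at Day 4 (13.4 to 15.2), 16.4 at Day 7 (15.7 to 16.99), 17.8 in Acta2 low (16.8 to 18.9) and 21.0 in Acta2 high (20.1 to 22.01). The intervals of Untreated, Day 2, Day 4 and Day 7 do not overlap. Col3a1 was lower relative to Col1a1 after transfer, from 0.855 in Untreated (0.797 to 0.918) to 0.532 at Day 2 (0.507 to 0.559), 0.291 at Day 4 (0.282 to 0.301) and 0.308 at Day 7 (0.302 to 0.313), with 0.259 in Acta2 low and 0.241 in Acta2 high. Col5a1 stood at 0.0578 of Col1a1 in Untreated (0.0466 to 0.0708), 0.0663 at Day 2, 0.0308 at Day 4 and 0.0118 at Day 7 (0.0108 to 0.0128). Within type V, Col5a2 kept at 0.601 to 0.902 of Col5a1 in the 6 libraries. Col6a2 was 2.01 to 3.002 times Col6a1, lowest in Acta2 low. Col6a3 was 0.0357 of Col6a1 in Untreated (0.0237 to 0.0516), 0.158 at Day 2 (0.121 to 0.204) and 0.0410 at Day 7 (0.0317 to 0.0521). Col4a2 was 0.737 of Col4a1 in Untreated (0.584 to 0.929), 0.947 at Day 2, 0.962 at Day 4, 1.91 at Day 7 (1.65 to 2.21), 0.968 in Acta2 low and 1.44 in Acta2 high (1.16 to 1.79).

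**Figure D4:**
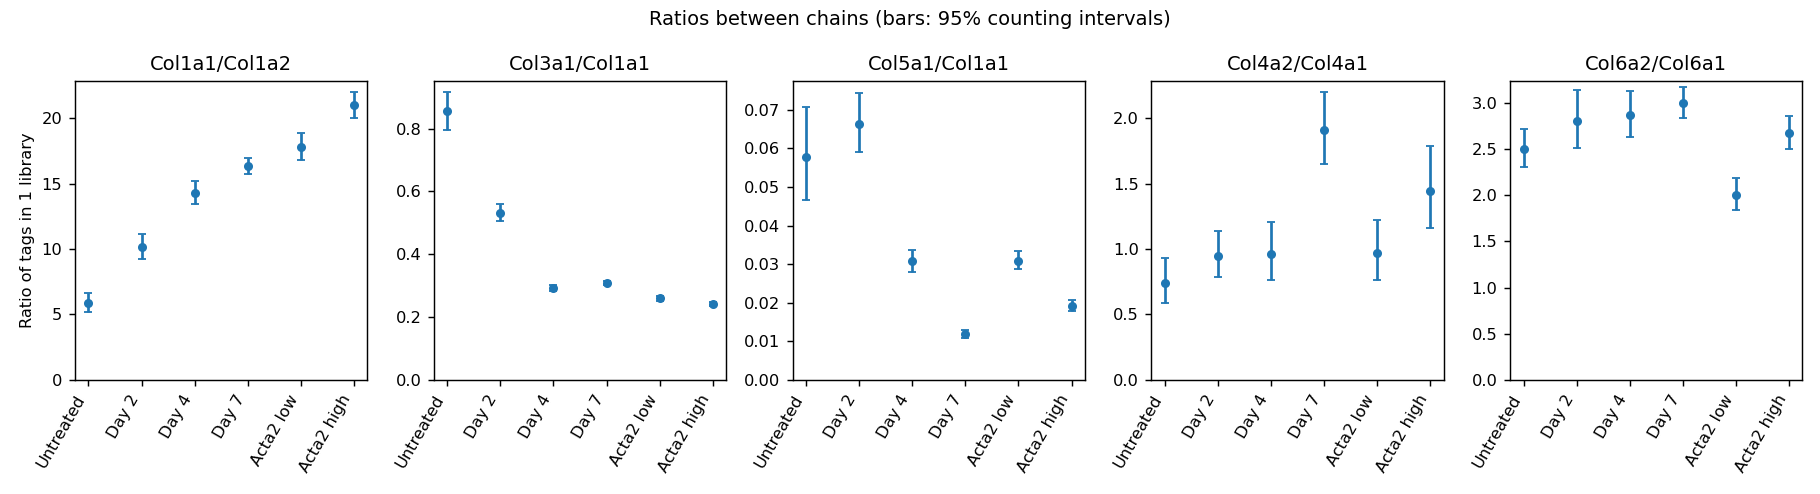
Ratio of tags of 2 collagen genes within each of the 6 libraries, 1 pair per panel, with exact 95% counting intervals as bars. Col1a1 over Col1a2 went from 5.87 in Untreated to 16.4 at Day 7, and Col4a2 over Col4a1 was highest at Day 7, at 1.91.

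In the sorted cells, most collagen genes were somewhat higher in Acta2 high than in Acta2 low, and none of the 17 measured genes was past 4-fold, with backgrounds of 0% and 0.15%. Acta2 itself stood at 451 CPM in Acta2 high and 277 in Acta2 low, 1.80-fold apart relative to the median gene (1.68 to 1.92), so the libraries differ in the direction of their labels. Of the 17 genes, 3 were at least 2-fold higher (Col6a2, Col8a1 and Col15a1) and Col18a1 lower, with backgrounds of 0.55% and 0.9%. Col8a1 stood 2.62-fold higher (1.99 to 3.49, relative to the median gene), Col15a1 2.52-fold (2.01 to 3.19) and Col6a2 2.29-fold (2.16 to 2.44). Col1a1 was 2.05-fold higher (2.01 to 2.08), Col3a1 1.90-fold (1.84 to 1.96) and Col1a2 1.73-fold (1.61 to 1.86), against a ratio of 1.27 for Col5a1 (1.14 to 1.41). Col18a1 was 1.96-fold lower in Acta2 high (1.39 to 2.78). The intervals of Col4a1, Col6a3 and Col23a1 included the median gene. The median of the 17 genes was 0.51 log2, against -0.14 for all 3998 measured genes.

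**Figure D5:**
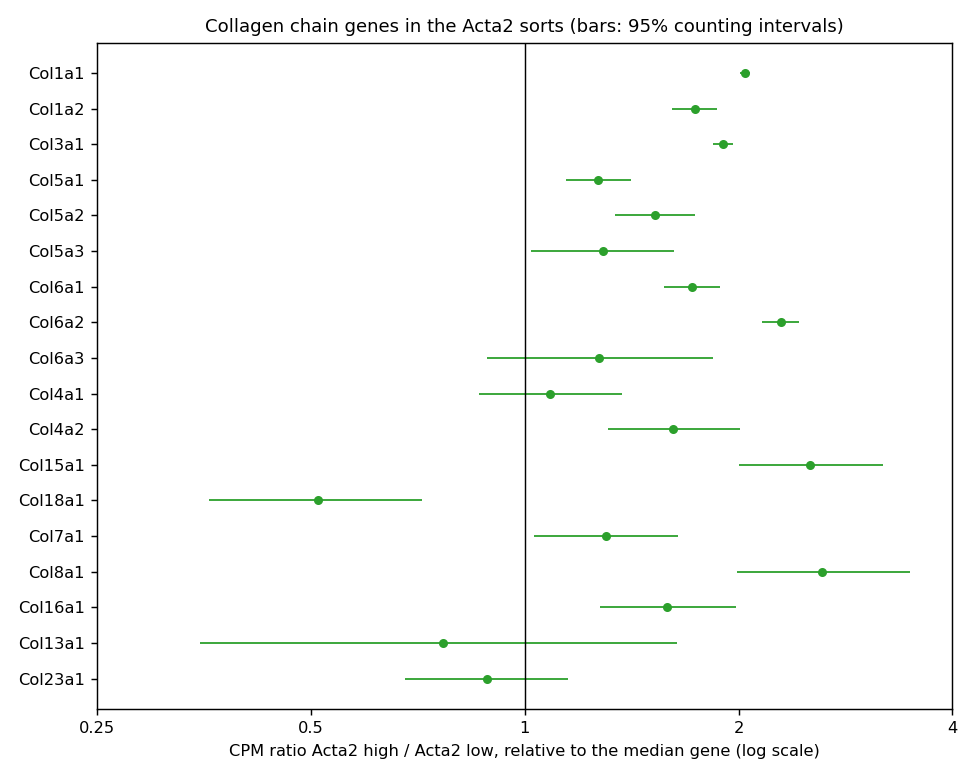
Ratio of CPM in Acta2 high to Acta2 low for the 18 genes, divided by the fold of the median measured gene, on a log axis with exact 95% counting intervals (1 library each). Col8a1, Col15a1, Col6a2 and Col1a1 lay above 2, Col18a1, Col13a1 and Col23a1 lay below 1, and Col13a1 had the widest interval, from 13 and 19 tags.

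Genes that make, trim and cross-link collagen were read from a list of 33. Against Untreated, 25 were measured at Day 2 with 3 past 4-fold higher and 2 lower, 25 at Day 4 with 7 higher and 1 lower, and 24 at Day 7 with 4 higher and 1 lower. The shares over all measured genes were 13.6% higher and 4.7% lower at Day 2, 9.99% and 5.11% at Day 4, and 4.95% and 3.31% at Day 7. P4ha3, Bmp1, Adamts14 and Loxl2 had under 10 CPM in Untreated and were measured only because they were higher after transfer, so their calls follow in part from the filter. P4ha3, a prolyl hydroxylase subunit, stood at 1.10 CPM in Untreated, 47.1 at Day 2, 67.0 at Day 4 and 118 at Day 7. Its relative P4ha1 was lower after transfer, at 39.7 CPM in Untreated, 16.8 at Day 2, 20.2 at Day 4 and 16.4 at Day 7. P4ha2 stood at 17.7, 18.3, 27.4 and 19.0 CPM in the same libraries. Bmp1 and Adamts14, which encode proteases that trim procollagen ends, were 7.70-fold (5.80 to 10.4) and 4.78-fold (3.59 to 6.49) above Untreated at Day 7. The cross-linking enzyme genes Lox, Loxl2 and Loxl3 were past 4-fold at Day 4 and within it at Day 2 and Day 7. At Day 4 they stood at 4.62-fold (3.59 to 6.01), 4.14-fold (2.92 to 6.01) and 3.61-fold (2.83 to 4.64) relative to the median gene. Loxl1, of the same family, stood at 430 CPM in Untreated, 318 at Day 2, 297 at Day 4 and 627 at Day 7. Its ratio to Untreated relative to the median gene was 0.469 at Day 2 (0.442 to 0.498), 0.557 at Day 4 (0.520 to 0.596) and 1.115 at Day 7 (1.059 to 1.175). Loxl4 was not measured. Sparc, a collagen-binding glycoprotein, was 7.65-fold above Untreated at Day 7 (7.56 to 7.74). Pcolce2, an enhancer of procollagen trimming, was 35.4-fold lower at Day 2 (32.9 to 38.1), 62.0-fold at Day 4 (54.6 to 70.8) and 127-fold at Day 7 (109 to 149), and Pcolce, its relative, was 6.61-fold lower at Day 2 (6.17 to 7.08), 3.72-fold at Day 4 (3.47 to 3.99) and 1.93-fold at Day 7 (1.84 to 2.03), past the 4-fold rule at Day 2 alone. Of 10 collagen receptor and uptake genes, 2 to 3 were measured against Untreated and none was past 4-fold. Among them Itgb1, an integrin subunit, stood at 40.6 CPM in Untreated, 85.0 at Day 2, 111 at Day 4 and 60.7 at Day 7.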

How the data were processed

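The authors deposited 1 table of CPM values (3' SAGE tags per 1000000 assigned tags) for 24408 genes in 6 libraries, per the file headers. Per the labels' protocols, the cDNA was amplified with PCR before short tags near transcript ends were sequenced. BWA 0.6.2 and the build mm9 are named in the submitters' processing notes; the anchoring enzyme, how tags were assigned to genes and whether strand was used are not stated there. In each library, 100% of the values fell within 0.001 of a whole multiple of the smallest one, which gave tag counts and depths. Counting error (Poisson, 95%) puts a Day 4 level of 10 CPM between 7.19 and 13.3 CPM. The protocols name no molecular identifier for amplified copies, so intervals and floors cover only this error.

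Groups follow the sample titles, with 1 library each. Differences were taken as log2(CPM + 1) over genes with a mean of at least 10 CPM in the 2 compared libraries, called at 4-fold; the pseudocount of 1 CPM understates the change of low genes. Ratios of CPM carry exact conditional 95% intervals of the tags, and a gene at 0 tags was set to 3 tags in its library. The calls and intervals were tested on simulated data. Genes averaging 10 CPM or more across the 6 libraries were described singly, and the others by range or as examples, some picked after their values were seen. The members and lists were chosen with earlier results of these data known. A count test with replicates was not possible, so a two-sided exact binomial test on recovered tags (Benjamini-Hochberg adjusted, 0.05), which compares 2 libraries and not conditions, was added to the size rule as an alternative. Python 3.11.15, numpy 2.4.6, pandas 2.3.3 and scipy 1.17.1 were used.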

Additional observations from a re-analysis of the deposited data

How the results depend on the processing

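No paired analysis was possible because each group has 1 library, and for the same reason no library could be left out. Of 84 counts of collagen genes past the size rule under 7 alternatives, 66 equalled the reported count or stayed within 1.5 times it, and 18 did not. A count of 0 that stayed 0 was scored as equal, as for the sorts at 4-fold. The reported counts are 0 to 9, so 1 gene can move them, and the cause was not tested. Percentages in parentheses below are the shares called over all genes tested at that setting. For Day 2 against Untreated, genes called higher numbered 0 with a pseudocount of 5 CPM (9.89%) and 2 with no filter on low values (5.92%). They numbered 0 under median-ratio scaling (8.29%) and 5 at 2-fold (38.9%). Genes called lower numbered 2 under median-ratio scaling (6.82%), 3 without the 100 most abundant genes (7.79%) and 2 at 2-fold (10.4%). Genes called lower at Day 4 against Untreated numbered 2 with no filter (2.49%, Col17a1 joining Col13a1) and 2 without the 100 most abundant genes (6.86%, Col4a5 joining). They numbered 2 at 2-fold (14%, Col23a1 joining), and at Day 7 against Untreated 2 with no filter (1.39%). For Day 4 against Day 2, genes called higher numbered 2 with no filter (0.169%), 2 under median-ratio scaling (0.496%) and 10 at 2-fold (2.14%). At 2-fold, 6 were higher (11.6%) and 1 lower (7.87%) for Day 7 against Day 4, and 3 higher (0.55%) and 1 lower (0.9%) for Acta2 high against Acta2 low. A count can stay the same while its genes differ: without the 100 most abundant genes, Col12a1 took the place of Col1a2 at Day 4. With a pseudocount of 5 CPM, Col15a1 was lost at Day 7. A pseudocount of 0.1 CPM moved none of the 12 counts. The added binomial test moved none either. It passed every gene past the size rule in every comparison, so it could not separate the calls and is no check of them. That test, which compares libraries, passed 3493 of 4256 genes at Day 2, 2930 of 3933 at Day 4 and 2798 of 4017 at Day 7 against Untreated, 2602 and 2574 at the later steps and 1422 between the sorts. Without Col1a1, Col1a2 and Col3a1 the fibrillar share of collagen tags was 4.27% in Untreated, 19.9% at Day 2, 20.5% at Day 4, 10.2% at Day 7, and 25.8% and 20.2% in the Acta2 low and Acta2 high sorts. Depth limits the 12 genes with at most 3 tags in any library, for which no difference was detectable.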
